A study of Mus musculus with 5 samples.

Results

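The 31 genes studied here, of glucose breakdown and of the oxygen-sensing pathway, were followed in NIH3T3 cells, an established mouse fibroblast line, after CRISPR activation of LINE-1 retrotransposons. The members were found by gene symbol in a table of 21259 genes, in which all 31 are listed. They were divided by role into 16 glycolytic enzymes, 6 transporters and regulatory kinases, and 9 genes of the hypoxia-inducible factor (HIF) pathway. The cells carried a stable dCas9 activator, which is a cutting-dead Cas9 that a single guide RNA (sgRNA) brings to a chosen promoter to increase its transcription. The groups were 3 libraries from cells that received plasmids with sgRNA against the LINE-1 promoter (L1 sgRNA) and 2 libraries from cells that received scramble sgRNA, all taken 48 h after transfection. The activator was present in both groups, and the labels do not say whether the replicates were separate cultures or transfections, so p-values refer to the spread among the 5 libraries, which may be technical.

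Glycolysis splits glucose into pyruvate in the cytosol, and lactate dehydrogenase turns pyruvate into lactate, which leaves the cell through monocarboxylate transporters. Its flow is set in part by glucose uptake, hexokinase, phosphofructokinase and pyruvate kinase, several of which exist as isozymes from separate genes. When oxygen is low, the prolyl hydroxylases that mark HIF alpha subunits for destruction slow down, and HIF binds a short DNA core next to many genes of glycolysis, vessel growth and pH control. Much of HIF regulation therefore acts on protein, which RNA levels do not show.

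Values are normalized read counts as deposited by the authors, and changes are L1 sgRNA over scramble on the scale of log2(value + 1), with p-values from limma adjusted by the Benjamini-Hochberg method over the 14337 genes with a mean of at least 10. The deposited values correspond to 35996907 to 45596490 gene reads per L1 sgRNA library and 30681384 to 36726985 per scramble library. Of the targeted repeats, the young subfamily L1MdTf_I read 654.7, 716.9 and 643.3 in the L1 sgRNA libraries, against 328.6 and 312.6 in the scramble libraries. Fibroblast markers were present throughout, and Col1a1, the main chain of collagen I, averaged 86146 ± 2958 in L1 sgRNA and 139610 ± 3142 in scramble libraries (SD, n = 3 and 2). The summed fibroblast markers ran from 496779 to 519460 in L1 sgRNA libraries and from 730089 to 783759 in scramble libraries, with 10 of 11 tested markers lower and 0 higher. For this and the marker counts that follow, 25.4% of all tested genes were lower and 18.2% higher. Endothelial markers summed to 868.6 to 1027 in L1 sgRNA and 380.9 to 436.8 in scramble libraries, with 3 of 6 tested higher, 0 lower and Kdr, Tie1, Emcn and Cldn5 under the filter. Adipocyte markers summed to 1302 to 1332 in L1 sgRNA and 1194 to 1218 in scramble libraries. Of 4 tested 3 were higher and 1 lower, and Adipoq, Lep, Plin1 and Cidec were under the filter. Pparg, among the 3, had a scramble mean under 10 and was tested through its L1 sgRNA values alone. Neural markers, a list that includes Eno2 and Aldoc, summed to 9003 to 9149 in L1 sgRNA and 7999 to 8049 in scramble libraries. Of 10 tested 4 were higher and 2 lower, and Syp, Olig2 and Stmn2 were under the filter. Rbfox3, among the 4, likewise had a scramble mean under 10. Epithelial markers summed to 169.7 to 202.1 in L1 sgRNA and 134.5 to 144.5 in scramble libraries, with 1 of 5 tested higher, 0 lower and the other 7, Epcam among them, under the filter. No marker was at 0 in every library. The part of these cell markers in the changes below was not tested. In bulk RNA, fewer cells of a type and less RNA per cell cannot be told apart.

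Most of the 31 genes were lower after L1 sgRNA, and a few, with Pfkfb4 and Ankrd37 at the head, were higher. All 31 passed the filter on low values, 18 fell, 3 rose and 10 did not pass the threshold of 0.05. Among all tested genes 25.4% fell and 18.2% rose (43.5% in either direction), and the median change was -0.06. In 25 of the 31 genes every L1 sgRNA library lay on one side of both scramble libraries, as in 61.8% of all tested genes. The deposited scaling moves these counts. After rescaling the libraries by the trimmed mean of M-values (TMM), which brings the median of all genes to -0.01, 13 members fell and 4 rose, against 18.3% and 20.8% of all genes. With each library scaled to its own table total, 12 fell and 6 rose, against 14.9% and 22.9% of all genes. Of the 21 genes that passed, 14 did so under every one of 15 alternative settings, and no call changed direction.

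**Figure D1:**
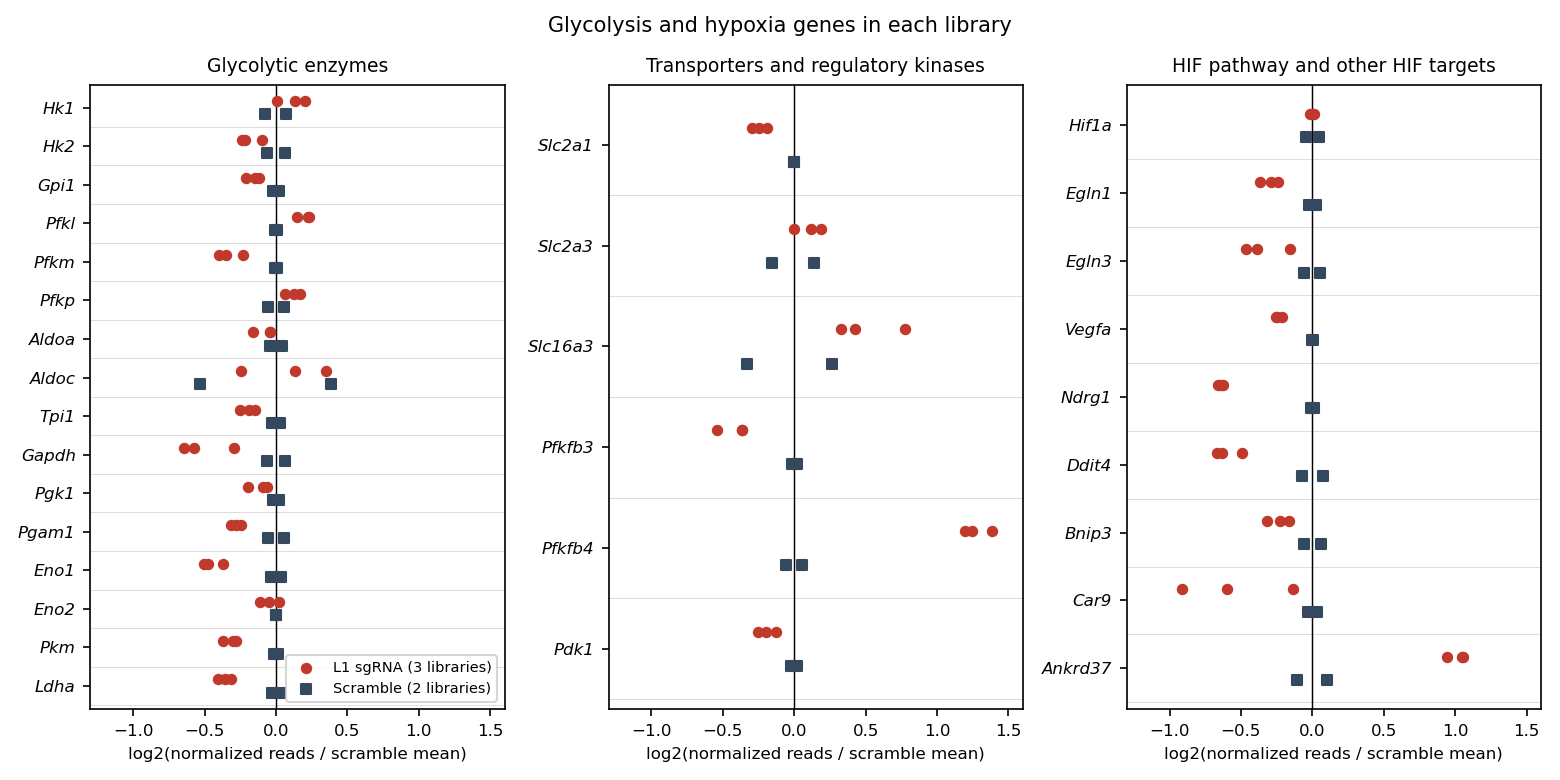
Normalized reads of each gene in every library, as log2 of the ratio to the scramble mean, with L1 sgRNA libraries as circles above and scramble libraries as squares below each line. Pfkfb4 and Ankrd37 stand apart on the high side in all 3 L1 sgRNA libraries, while Ndrg1, Ddit4 and Eno1 lie on the low side.

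The HIF core can read ACGTG or GCGTG, and only ACGTG, called the core here, was searched for. Both strands were read (as ACGTG or CACGT, with overlapping matches counted separately) in the 250 bases before the most upstream RefSeq start of each gene. GCGTG was not counted, and the window of Pdk1, among others without the core, holds it. An entry was at hand for 29 of the 31 genes, and Ndrg1 and Slc2a3 were not searched. The core occurred in 15 of the 29 windows (51.7%), and in 17.8% of 16546 windows of genes in the table. It lay in 10 of 17 windows of members that fell, in 1 of 3 of those that rose (Ankrd37) and in 4 of 9 of those that did not pass. A match describes these letters only. The windows of 4 members are shown, without bases that the annotation counts as exon, because they belong to the strongest riser and to HIF targets that fell with and without the core. They come from RefSeq on GRCm38.p6, read 5′ to 3′ on the gene's own strand, and capitals mark the core on either strand. Pfkfb4 (chr9:108991652-108991777, plus strand) has none, Ldha (chr7:46845554-46845803, plus strand) has 5 matches at 3 places, Ddit4 (chr10:59951835-59952020, minus strand) has 1, and Vegfa (chr17:46032378-46032627, minus strand) has none in this window.
Pfkfb4: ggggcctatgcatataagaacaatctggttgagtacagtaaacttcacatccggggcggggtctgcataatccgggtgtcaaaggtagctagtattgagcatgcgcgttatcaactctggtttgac
Ldha: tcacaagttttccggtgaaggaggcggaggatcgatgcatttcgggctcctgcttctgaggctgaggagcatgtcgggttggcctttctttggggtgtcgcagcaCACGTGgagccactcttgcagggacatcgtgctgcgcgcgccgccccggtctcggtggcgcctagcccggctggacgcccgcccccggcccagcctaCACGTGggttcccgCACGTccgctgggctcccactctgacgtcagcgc
Ddit4: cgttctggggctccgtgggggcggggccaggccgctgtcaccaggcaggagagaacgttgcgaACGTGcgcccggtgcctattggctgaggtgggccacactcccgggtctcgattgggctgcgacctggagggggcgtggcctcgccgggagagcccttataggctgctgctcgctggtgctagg
Vegfa: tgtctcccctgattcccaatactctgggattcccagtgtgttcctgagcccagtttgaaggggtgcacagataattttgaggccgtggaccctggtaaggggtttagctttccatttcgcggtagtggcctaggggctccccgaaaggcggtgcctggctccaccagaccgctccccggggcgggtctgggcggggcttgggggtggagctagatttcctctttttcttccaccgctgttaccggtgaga

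Of the 16 glycolytic enzymes 9 fell, 1 rose and 6 did not pass, against 25.4% lower and 18.2% higher among all genes. The median change of the enzymes was -0.17. Of the 9 that fell, 6 act from the triose phosphates to lactate (Tpi1, Gapdh, Pgam1, Eno1, Pkm and Ldha), and the one that rose was Pfkl. Pgk1 and Eno2, of the same stretch, did not pass, and the calls of Tpi1 and Gapdh were lost under some settings. Whether the falls gather in this stretch was not tested. The 16 enzymes together read 164021 ± 5173 in L1 sgRNA and 192526 ± 2844 in scramble libraries (SD, n = 3 and 2), a change of -14.8%. The L1 sgRNA libraries had 165998, 158150 and 167914, against 194537 and 190515 in the scramble libraries, so the groups did not overlap. A two-sided exact permutation test gave p = 0.1, the smallest that 3 against 2 libraries allow. The change was -11.7% after TMM rescaling and -9.78% on table totals. A sum weighs abundant enzymes most, and Pkm and Ldha, both among those that fell, had the most reads in every library.

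At the entry to the pathway, hexokinases trap glucose as its phosphate. Hk2, the inducible muscle and tumour form, read 2535, 2328 and 2297 in L1 sgRNA libraries, against 2591 and 2830 in scramble libraries (log2 change -0.18, SE 0.063, adjusted p = 0.026). The highest L1 sgRNA library lay just under the lower scramble library. The call was lost under TMM rescaling (adjusted p = 0.11), table totals (0.22), edgeR (0.12) and DESeq2 (0.16), and without scramble library 2 (0.22), L1 sgRNA library 2 (0.064) or L1 sgRNA library 3 (0.099). Hk1, the form found in most tissues, had a change of 0.12 that did not pass (adjusted p = 0.17), though it passed on table totals (0.02), with edgeR (0.043) and without L1 sgRNA library 2 (0.046). Gpi1, which converts glucose phosphate to fructose phosphate, read 13788, 13179 and 14032, against 15055 and 15477 in scramble libraries (log2 change -0.16, adjusted p = 0.022). Its groups did not overlap, and this call was lost under the same scalings and tools (adjusted p from 0.11 to 0.19) and without scramble library 2 (0.08) or L1 sgRNA library 1 (0.087).

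Phosphofructokinase, which commits sugar to glycolysis, is built from 3 kinds of subunit, of which 1 rose, 1 fell and 1 did not pass. Pfkl, the liver-type subunit (chr10:77986947-78010083), read 8413, 7977 and 8464 in L1 sgRNA libraries, against 7225 and 7167 in scramble libraries. Every L1 sgRNA library was above both scramble libraries, a rise of 15.1% (log2 change 0.20, SE 0.052, adjusted p = 0.0044). Pfkm, the muscle-type subunit (chr15:98092589-98132451), read 2659, 2575 and 2896, against 3417 and 3373 in scramble libraries. It fell by 20.2%, with no overlap (log2 change -0.33, SE 0.060, adjusted p = 3e-04). Pfkp, the platelet-type subunit, was at 1026, 1103 and 1070, against 942.2 and 1020 in scramble libraries, and did not pass (adjusted p = 0.20), though it did on table totals (0.041). Both the Pfkl and the Pfkm call held under all 15 alternatives.

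In the splitting of the sugar, Aldoa, the main aldolase, had a change of -0.08 and Aldoc, the brain form, one of 0.14, and neither passed (adjusted p = 0.30 and 0.78). Aldoc had the lowest level of the 31 genes per kilobase of exon, and its normalized reads were 16.63 to 25.01 in L1 sgRNA and 13.63 to 25.7 in scramble libraries. Tpi1, which interconverts the triose phosphates, read 17490, 16742 and 18043, against 20392 and 19548 in scramble libraries (log2 change -0.20, adjusted p = 0.0087). The groups were apart, and the call was lost on table totals (adjusted p = 0.07), without the variance trend (0.064) and without the filter on low values (0.06).

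Gapdh, which oxidises glyceraldehyde phosphate and often serves as a loading control (chr6:125161715-125166467), had 460.6, 559 and 438.4 in L1 sgRNA libraries, against 654.2 and 715.4 in scramble libraries. It fell by 29.0% without overlap (log2 change -0.50, SE 0.106, adjusted p = 0.0011), and the call was lost when no filter on low values was used (adjusted p = 0.076). Its listed level per length stood below that of Tpi1, its neighbour in the pathway. Per kilobase of merged exon it ranked 22 among the 31 genes in scramble libraries, at 165.7, while Tpi1 was at 7254. The genome annotation holds 78 other genes, 75 of them pseudogenes, with at least 95% identity to Gapdh over at least 200 bases, and the treatment of reads that fit several of them is not given in the sources used here. Gapdh also shares 68 exon bases with Iffo1 on the opposite strand, which read 1048 ± 28.2 in L1 sgRNA and 560.1 ± 57.7 in scramble libraries.

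Of the enzymes that follow, Pgk1, which makes ATP from bisphosphoglycerate, was below scramble in every L1 sgRNA library but did not pass (log2 change -0.12, adjusted p = 0.13). Pgam1, which moves the phosphate group, read 2437, 2504 and 2565, against 2919 and 3148 in scramble libraries (log2 change -0.28, adjusted p = 0.00092). Eno1, an enolase (chr4:150236721-150248879), read 4914, 4992 and 5388, against 7125 and 6793 in scramble libraries. No library of either group came near the other, and it fell by 26.7% (log2 change -0.45, SE 0.056, adjusted p = 5.2e-06). Eno1b, a near-identical copy listed separately in the table, had more reads than Eno1. It averaged 6690 ± 340.1 in L1 sgRNA and 8868 ± 419.4 in scramble libraries. Eno1b fell as well (log2 change -0.41, adjusted p = 2e-05), and reads of the pair may have been divided between them. Eno1 and Eno1b together averaged 11788 ± 498.1 in L1 sgRNA and 15827 ± 654.5 in scramble libraries (SD, n = 3 and 2), a change of -25.5%. Eno2, the neuronal enolase, had a change of -0.05 and did not pass (adjusted p = 0.56).

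Both enzymes at the end of the pathway fell. Pkm, the pyruvate kinase of most tissues and the most abundant of the 31 genes per kilobase (chr9:59656368-59679375), read 54619, 51254 and 53949 in L1 sgRNA libraries, against 66961 and 65850 in scramble libraries. It fell by 19.8% (log2 change -0.32, SE 0.064, adjusted p = 7e-04). Ldha, the muscle-type lactate dehydrogenase and a HIF target (chr7:46841475-46855627), read 26375, 25544 and 27186, against 34491 and 33154 in scramble libraries. It fell by 22.04% (log2 change -0.36, SE 0.058, adjusted p = 8.5e-05), and its window above carries the core at 3 places. Neither gene's groups overlapped, and both calls held under all 15 alternatives.

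Among the 6 transporters and regulatory kinases 3 fell, 1 rose and 2 did not pass, against 25.4% and 18.2% of all genes. The median change of these 6 was -0.04, which turned to 0.01 after TMM rescaling. Slc2a1, the glucose transporter of most cells (chr4:119108711-119137983), read 6646, 6175 and 6403 in L1 sgRNA libraries, against 7593 and 7573 in scramble libraries (log2 change -0.24, SE 0.052, adjusted p = 0.0012). The groups did not overlap. Slc2a3, a high-affinity glucose transporter of neurons, had a change of 0.11 and did not pass (adjusted p = 0.54). Slc16a3, which exports lactate, read 91.05, 97.33 and 124.3, against 57.82 and 87.26 in scramble libraries, and missed the threshold (log2 change 0.53, SE 0.215, adjusted p = 0.055). It passed after TMM rescaling (adjusted p = 0.039), on table totals (0.038), with a pseudocount of 8 (0.046), and without scramble library 2 (0.013) or L1 sgRNA library 1 (0.043).

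The largest change among all 31 genes was in Pfkfb4, and its paralogue Pfkfb3 went the other way. Both encode enzymes that make and remove a fructose bisphosphate that activates phosphofructokinase. Pfkfb4 (chr9:108991778-109032228, plus strand) read 874.2, 997 and 906.5 in L1 sgRNA libraries, against 366.2 and 397.2 in scramble libraries. The lowest L1 sgRNA library was far above the highest scramble library. Its mean was 925.9 ± 63.6 in L1 sgRNA and 381.7 ± 21.96 in scramble libraries (SD, n = 3 and 2), 2.43-fold higher (log2 change 1.28, SE 0.089, adjusted p = 4e-09). Pfkfb3, the form with the stronger kinase activity (chr2:11471433-11554077), read 344.9, 305.5 and 344.8, against 448.6 and 438.1 in scramble libraries (log2 change -0.42, SE 0.106, adjusted p = 0.004). Pdk1, which switches off pyruvate dehydrogenase and so keeps pyruvate from the mitochondria, read 1552, 1628 and 1490, against 1808 and 1752 in scramble libraries (log2 change -0.19, adjusted p = 0.021). The Pfkfb4 and Pfkfb3 calls held under all 15 alternatives, and that of Pdk1 was lost under TMM rescaling (adjusted p = 0.09), table totals (0.21), edgeR (0.11) and DESeq2 (0.15). It was also lost without scramble library 1 (0.096), L1 sgRNA library 1 (0.069) or L1 sgRNA library 3 (0.092).

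**Figure D2:**
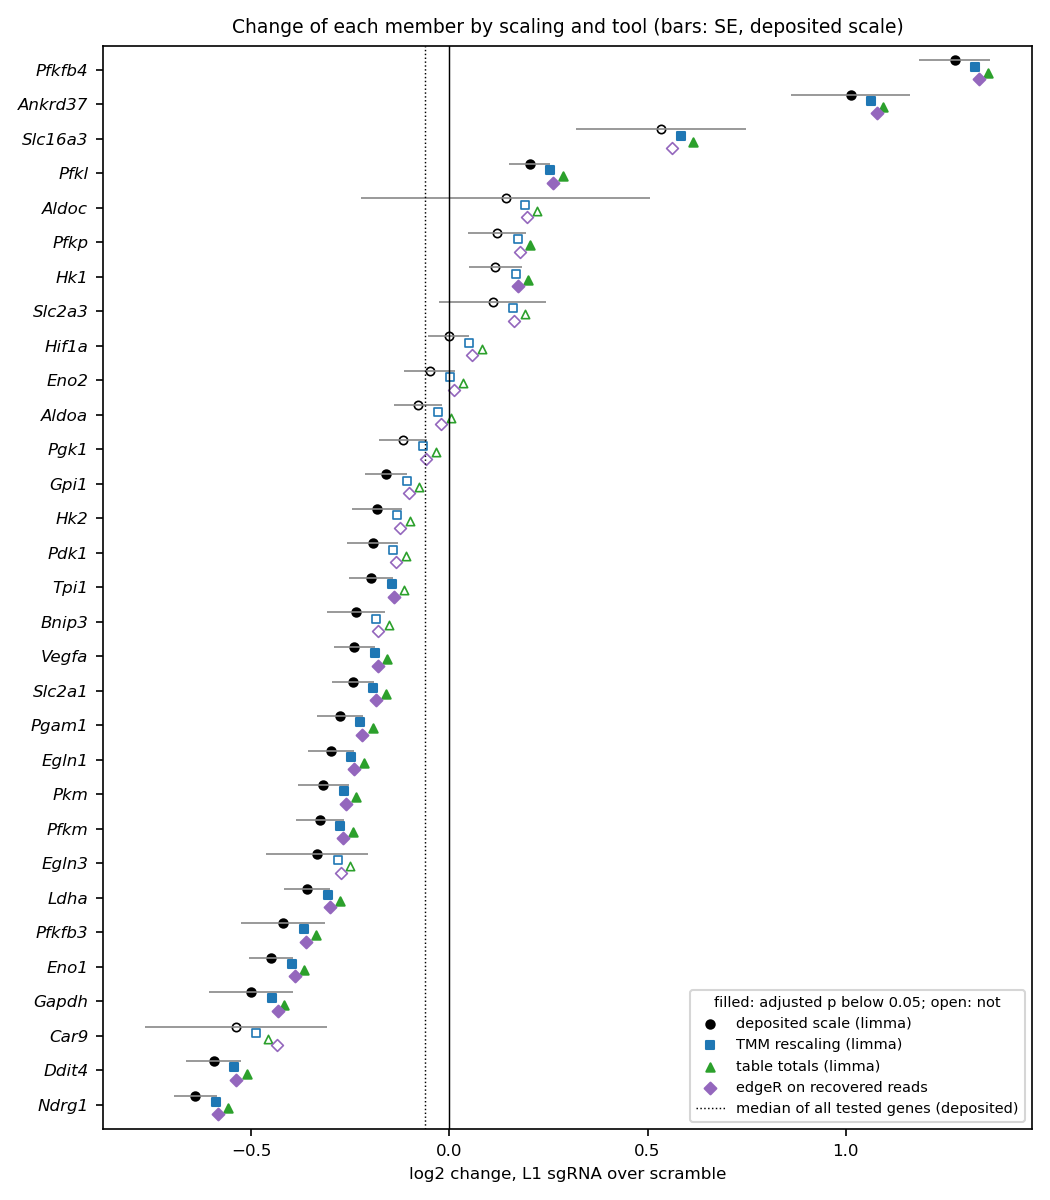
Log2 change of each gene, L1 sgRNA over scramble, with the deposited scaling (circles, bars of 1 SE), TMM rescaling (squares), table totals (triangles) and edgeR on recovered reads (diamonds), filled where the adjusted p was below 0.05. The other scalings shift all genes to the right by a like amount, which empties the symbols of Hk2, Gpi1, Pdk1, Egln3 and Bnip3 and leaves those of Ndrg1, Ddit4, Eno1 and Pfkfb4 filled.

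Of the 9 genes of the HIF pathway 6 fell, 1 rose and 2 did not pass, against 25.4% and 18.2% of all genes. The median change of these 9 was -0.30. On TMM-rescaled values, on table totals, with edgeR and with DESeq2, 4 fell and 1 rose, where edgeR called 18.0% of all genes lower and 21.2% higher, and DESeq2 16.9% lower and 19.6% higher. Hif1a, the oxygen-regulated alpha subunit itself, did not pass. It read 8128, 7979 and 8032 in L1 sgRNA libraries, which lay between the scramble libraries at 7800 and 8316 (adjusted p = 0.98). Of the prolyl hydroxylases that mark it, Egln1 (chr8:124908587-124949324) read 2558, 2347 and 2482, against 3078 and 2981 in scramble libraries (log2 change -0.30, SE 0.058, adjusted p = 0.00048). Egln3, itself a HIF target, read 225.3, 213.6 and 265.1, against 306.2 and 283.6 in scramble libraries (log2 change -0.33, SE 0.129, adjusted p = 0.045). Its call was lost under TMM rescaling (adjusted p = 0.093), table totals (0.15), edgeR (0.1) and DESeq2 (0.15). It was also lost without scramble library 1 (0.19), scramble library 2 (0.069), L1 sgRNA library 1 (0.11) or L1 sgRNA library 2 (0.13).

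The largest falls were in Ndrg1 and Ddit4. Ndrg1, a hypoxia-induced gene of growth arrest and differentiation (chr15:66929318-66969640), read 2197, 2148 and 2177 in L1 sgRNA libraries, against 3363 and 3423 in scramble libraries. The groups were far apart, and it fell by 35.9% (log2 change -0.64, SE 0.055, adjusted p = 5.3e-08). Ddit4, a stress- and hypoxia-induced inhibitor of mTORC1 (chr10:59949669-59951834), read 1528, 1489 and 1681, against 2487 and 2245 in scramble libraries. It fell by 33.8% (log2 change -0.60, SE 0.069, adjusted p = 2.4e-06), without overlap. Vegfa, the growth factor of vessels (chr17:46016993-46032369), read 3863, 3770 and 3745, against 4475 and 4480 in scramble libraries (log2 change -0.24, SE 0.052, adjusted p = 0.0012). Bnip3, a mitochondrial protein of mitophagy, read 1015, 1079 and 1127, against 1212 and 1317 in scramble libraries (log2 change -0.24, SE 0.073, adjusted p = 0.015). The Ndrg1, Ddit4 and Vegfa calls held under all 15 alternatives, and that of Bnip3 was lost under TMM rescaling (adjusted p = 0.057), table totals (0.12), edgeR (0.057), DESeq2 (0.081), and without scramble library 2 (0.13) or L1 sgRNA library 1 (0.086). Car9, a carbonic anhydrase of the cell surface and among the most oxygen-dependent HIF targets, read 60.96, 83.81 and 49, against 94.22 and 89.99 in scramble libraries. All 3 L1 sgRNA values were the lower ones, but the change did not pass (log2 change -0.54, SE 0.229, adjusted p = 0.067), and it did without L1 sgRNA library 2 (0.018).

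Ankrd37, a small ankyrin-repeat gene induced by hypoxia, was the one member of this group that rose. It read 186.7, 201.4 and 200.4 in L1 sgRNA libraries, against 103.9 and 89.99 in scramble libraries. Its means of 196.2 ± 8.20 in L1 sgRNA and 96.9 ± 9.81 in scramble libraries differed 2.02-fold (log2 change 1.01, SE 0.15, adjusted p = 3.7e-05), and the call held under all 15 alternatives. Ankrd37 (chr8:45996902-46005707) shares 349 exon bases, 22.7% of its own, with Lrp2bp on the opposite strand. Lrp2bp rose as well, to 326.7 ± 22.2 in L1 sgRNA, against 106.1 ± 1.65 in scramble libraries (log2 change 1.61, adjusted p = 2.8e-08). The strand used in counting is not given in the sources used here, so reads of the pair in the shared exons cannot be told apart.

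The make-up of isozyme families was compared as the share of each gene in its family's reads per kilobase of merged exon, a quantity that does not depend on how libraries are scaled. Shares were computed for 42 genes of 12 families chosen after the values above were known. An exact permutation test on 3 against 2 libraries cannot go below 0.1, and the smallest p adjusted over the 42 shares was 0.22, so the shares are given as a description. The groups did not overlap in 29 of the 42 shares, and shares within a family depend on each other. For levels of single genes the groups did not overlap in 61.8% of all tested genes. Pfkl made up 59.09, 58.34 and 57.25% of phosphofructokinase in L1 sgRNA libraries, against 49.75 and 49.72% in scramble libraries. Pfkm made up 38.0 ± 0.976% in L1 sgRNA and 46.9 ± 0.181% in scramble libraries (SD, n = 3 and 2), and neither subunit's groups overlapped. Pfkfb4 made up 42.1 ± 1.02% of its family in L1 sgRNA and 21.0 ± 0.233% in scramble libraries. Pfkfb2, the heart form and no member of the list, was the main form in scramble libraries, at 41.3 ± 0.544% in L1 sgRNA and 54.6 ± 0.403% in scramble libraries.

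Among the hexokinases, Hk2 took a smaller share and Hk3, a gene outside the 31, a larger one. Hk2 made up 48.61, 46.98 and 45.31% in L1 sgRNA libraries, against 57.67 and 57.17% in scramble libraries, while Hk1 overlapped between groups. Hk3, the hexokinase of myeloid cells, made up 7.86 ± 1.39% in L1 sgRNA and 0.260 ± 0.095% in scramble libraries. Summed leukocyte markers were 1031 to 1055 in L1 sgRNA and 780.5 to 845.4 in scramble libraries. Of 10 tested 6 were higher and 0 lower, against 18.2% and 25.4% of all genes, and Cd3e and Tyrobp were under the filter. Of the 6, 5 had a scramble mean under 10 and were tested through their L1 sgRNA values alone. Cd52, among these 5, shares 14.5% of its exon bases with Crybg2 on the opposite strand. Crybg2 averaged 201.5 ± 16.1 in L1 sgRNA and 2.14 ± 3.03 in scramble libraries. The part of the leukocyte markers in the Hk3 level was not tested. Ldha made up 85.9 ± 0.576% of lactate dehydrogenase in L1 sgRNA and 83.2 ± 0.156% in scramble libraries, and Ldhb, the heart form, fell (log2 change -0.66, adjusted p = 4.4e-07).

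**Figure D3:**
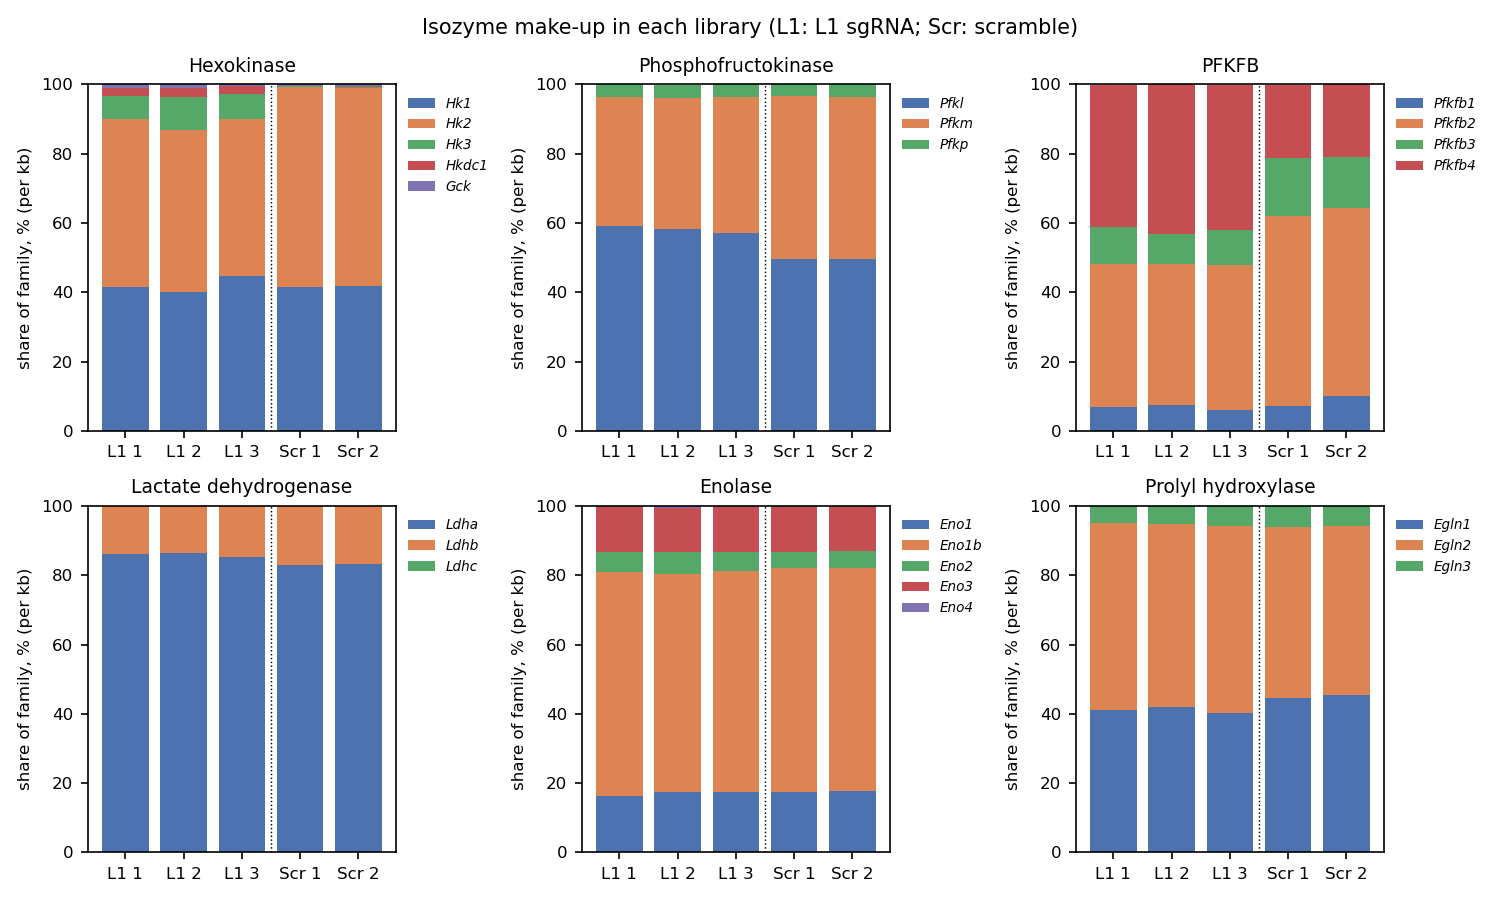
Share of each gene in its family's reads per kilobase, in percent, for 6 families in each library, with L1 sgRNA libraries left of the dotted line and scramble libraries right of it. Pfkl and Pfkfb4 take a larger part, and Hk2 a smaller one, in all 3 L1 sgRNA libraries, while the enolase bars look alike.

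Genes beside the 31 were read from lists chosen by pathway. Among all tested genes 25.4% fell and 18.2% rose. A few of the listed genes had a scramble mean under 10 and were tested only because their L1 sgRNA values are high. The filter thus favoured a rise in these few, and they are given by level. None of the 31 genes was of this kind. Of 19 tested other isozymes of glycolysis 4 fell (21.1%) and 2 rose (10.5%), with a median of -0.08. Both genes counted as higher were of that kind. Hk3 averaged 245.5 ± 37.4 in L1 sgRNA and 7.68 ± 3.29 in scramble libraries, and Hkdc1, a hexokinase-like gene, averaged 104.7 ± 10.9 in L1 sgRNA and 7.68 ± 3.29 in scramble libraries, with 5 and 11 recovered scramble reads for each. Those that fell were Ldhb, Eno3, Minpp1 and Gapdhs. Minpp1 and Gapdhs did not pass after TMM rescaling (adjusted p = 0.17 and 0.056), on table totals, with edgeR or with DESeq2, which left 2 falls. Of 13 other sugar and lactate carriers 4 rose (30.8%): Slc5a1, a sodium-driven glucose carrier, Slc2a8, Slc2a9, a urate transporter, and Bsg, the chaperone of lactate transporters. Slc5a1, with 5 and 3 scramble reads, was tested through its L1 sgRNA values alone. Emb, the related chaperone, and Slc16a1, the lactate transporter of most cells, were the 2 (15.4%) that fell (log2 change -0.54 and -0.41). Of 14 genes of pyruvate entry into mitochondria 3 fell (21.4%) and 1 rose (7.14%). Pdp1, Pdk4 and Pdha1 fell and Pdpr rose, and Pdha1 did not pass after TMM rescaling (adjusted p = 0.13). The rise of Pdpr was lost without the variance trend and without the filter on low values. It was also lost without scramble library 1, L1 sgRNA library 1 or L1 sgRNA library 2. Of 12 genes of the pentose phosphate pathway, which branches off to make NADPH and ribose, 8 fell (66.7%) and 0 rose, with a median of -0.21. After TMM rescaling 6 fell, 4 did without the variance trend and 1 on table totals, against 18.3%, 16.3% and 14.9% of all genes. Of 17 genes of glycogen metabolism 4 fell (23.5%) and 3 rose (17.6%), shares near those of all genes. Those that fell were Pygb, Phka2, Phkb and Ugp2. Gys2, Pgm2l1 and Pygm, the muscle glycogen phosphorylase, rose, Pygm by 1.07 on the log2 scale. Gys2, with 3 and 9 scramble reads, was tested through its L1 sgRNA values alone. Muscle markers, a list that includes the isozymes Eno3 and Pgam2, summed to 4123 to 4417 in L1 sgRNA and 2172 to 2354 in scramble libraries. Of 8 tested 3 were higher and 1 lower, and Actc1, Myh3, Myh4, Myog, Myod1 and Myl1 were under the filter. The 1 lower was Eno3, which alone averaged 1253 ± 59.8 in L1 sgRNA and 1630 ± 101 in scramble libraries. The part of the muscle markers in the Pygm level was not tested.

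Of 44 other genes known to be induced by hypoxia 12 fell (27.3%) and 11 rose (25%), against 25.4% and 18.2% of all tested genes, with a median of -0.12. These shares lie near those of all genes, and the named genes moved in both directions. Lox, a collagen crosslinker, averaged 32769 ± 656 in L1 sgRNA and 56416 ± 2181 in scramble libraries (log2 change -0.78, adjusted p = 1.4e-08). Stc1, a secreted glycoprotein, and Adm, a vasodilator peptide, also fell (log2 change -0.87 and -0.67). Bhlhe41, a clock-related repressor, averaged 1922 ± 82.6 in L1 sgRNA and 230.5 ± 0.486 in scramble libraries (log2 change 3.05, adjusted p = 3.5e-15). Sap30, a corepressor subunit, rose too (log2 change 1.20). Car12, a carbonic anhydrase counted among the 11, averaged 102.7 ± 8.83 in L1 sgRNA and 9.74 ± 1.66 in scramble libraries, and with 8 and 12 scramble reads it was tested through its L1 sgRNA values alone. The 11 also count Epo, which shares exon bases with Gnb2, and how many of its reads belong to Epo was not tested. Of 16 HIF subunits and regulators 4 fell (25%) and 2 rose (12.5%). Cited2, which competes with HIF for its coactivator, averaged 4502 ± 225 in L1 sgRNA and 6607 ± 42.0 in scramble libraries (log2 change -0.55, adjusted p = 3.7e-07). Arnt, Arnt2 and Vhl, the ligase subunit that binds hydroxylated HIF, fell as well. Ep300, the coactivator, rose (log2 change 0.44), and Hif3a, the other one counted as higher, had 3 and 5 scramble reads and was tested through its L1 sgRNA values alone.

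Regulators that share targets with these pathways were read in the same way. Of 15 Myc and MondoA regulators of glycolysis 7 fell (46.7%) and 1 rose (6.67%), against 25.4% and 18.2% of all tested genes. Myc, a transcription factor that drives many glycolytic genes, averaged 2767 ± 162 in L1 sgRNA and 3622 ± 113 in scramble libraries (log2 change -0.39, adjusted p = 5.6e-05), and Mycn fell by 1.11 on the log2 scale. The one that rose was Arrdc4, a glucose-sensing target of MondoA. Of 18 genes of the integrated stress response, most of them targets of the factor Atf4, 9 rose (50%) and 4 fell (22.2%), with a median of 0.19. Those that fell were Cebpb, Phgdh, Shmt2 and Atf4 itself. Shmt2 and Atf4 did not pass after TMM rescaling (adjusted p = 0.1 and 0.15), on table totals, with edgeR or with DESeq2, nor without the variance trend, which left 2 falls. Atf3, a stress-induced transcription factor, averaged 586.3 ± 35.8 in L1 sgRNA and 188.1 ± 11.6 in scramble libraries (log2 change 1.63, adjusted p = 1.6e-09). Trib3 and Ppp1r15a, feedback inhibitors of stress signalling, rose by 0.98 and 1.04 on the log2 scale, while Ddit4, a target of this pathway as well as of HIF, fell.

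**Figure D4:**
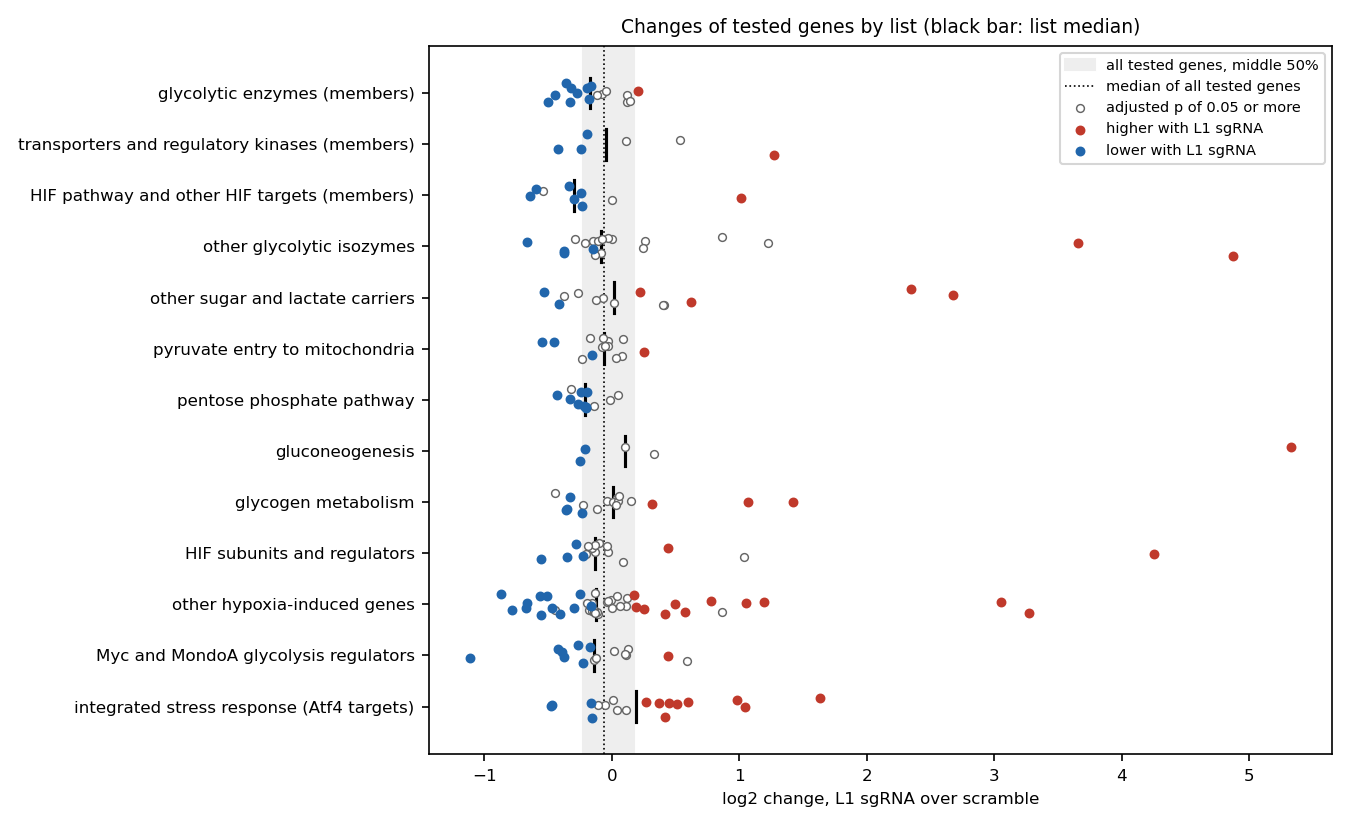
Log2 change, L1 sgRNA over scramble, of each tested gene in the lists, with genes that rose in red, those that fell in blue and those that did not pass as open circles. Black bars mark list medians and the grey band the middle 50% of all tested genes, and the bar of the HIF pathway members lies left of the band while that of the Atf4 targets lies at its right edge. Fbp2, Hk3, Hif3a, Hkdc1, Car12, Slc5a1 and Gys2 have scramble means under 10, so their points are fitted values and not measured folds.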

How the data were processed

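RNA-seq libraries of 5 samples were used, grouped by their labels. The values are a normalized signal that the authors deposited, named normalized counts. Tools listed in the submitters' processing notes are SAMtools 1.9, DESeq2, STAR 2.5.3a, bedtools 2.27.1 and Bowtie2 2.2.9, with the builds GRCm38 and mm10. How reads were counted, and on which strand, is not given in the sources used here. Every value is a whole multiple of its library's smallest (100% of values, within 0.001 reads), so whole reads were recovered.

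In R 4.3.3, limma 3.58.1 with a variance trend was fitted to log2(value + 1), without further scaling, for genes with a mean of at least 10. Alternatives were pseudocounts 0.5 and 8, no filter or a mean of at least 50, TMM, table totals, no trend, edgeR 4.0.16 and DESeq2 1.42.0 on recovered reads, each library left out, and a replicate block. Lengths, overlaps and positions come from GENCODE M21, and near copies from BLAST+ 2.17.0.

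The members and lists were chosen with earlier results of these data known. Members that passed without overlap are given in every library. Of other lists, up to 3 higher and 3 lower genes with the largest changes, a mean of at least 50 and no overlap are named, and where a list had few calls the others are named after their values were seen, as were the isozyme families. Symbols turned into dates (24) were kept.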

Additional observations from a re-analysis of the deposited data

How the results depend on the processing

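No member's call changed direction. The 7 calls lost under some setting were Hk2, Gpi1, Tpi1, Gapdh, Pdk1, Egln3 and Bnip3, all 7 without a filter on low values and all but Gapdh without the variance trend (adjusted p from 0.064 for Tpi1 to 0.13 for Hk2). Without the filter 11 members and 5 enzymes fell, against 18 and 9, while 10.5% of all genes fell, against 25.4%. Without the trend 12 members fell, against 16.3% of all genes. Enzymes that rose numbered 3 on table totals and 2 with edgeR, against 1, and 1 to 2 when a library was left out. Transporters and kinases that rose numbered 2 with a pseudocount of 8, 2 with TMM and 2 on table totals, against 1, and 1 to 2 when a library was left out. Among genes that had not passed, Slc16a3, Hk1, Pfkp and Car9 passed under at least 1 setting. Medians with TMM, table totals, edgeR and DESeq2 were -0.12, -0.089, -0.114 and -0.116 for enzymes, and -0.248, -0.216, -0.241 and -0.243 for the HIF pathway. For transporters and kinases, with a median of -0.043 as deposited, they were 0.009, 0.04, 0.015 and 0.013, and -0.128 without scramble library 2 to 0.035 without scramble library 1. The cause was not tested. The summed enzyme change ran from -15.8 to -13.3% when a library was left out.

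With the replicate number as a block over replicates 1 and 2, 9 enzymes fell and 1 rose, 6 HIF pathway genes fell and 1 rose, and no member's call changed. On the same 4 libraries without the block, a setting chosen after seeing the data, 8 enzymes fell and Hk2 and Pdk1 were lost. Among all genes 27.4% fell and 18.6% rose with the block, against 21.7% and 16.4% on the same 4 libraries without it. Deviations of same-numbered libraries correlated at -0.008 and 0.066. With 2 scramble libraries the deviations mirror each other, so these values cannot tell whether same-numbered libraries share more than a number. With 2 and 3 libraries, Aldoc, Car9 and Slc16a3, at no more than 124.3 normalized reads, had the widest errors.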

Other observations

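Hif3a, an alpha subunit of HIF known in part as an inhibitor of the others, was nearly silent in scramble libraries, with 3 and 5 recovered reads. It averaged 91.3 ± 6.97 normalized reads in L1 sgRNA and 3.88 ± 0.943 in scramble libraries (SD, n = 3 and 2). It met the filter on low values only through the L1 sgRNA libraries, so its test is no independent support. Fbp2, the muscle form of the gluconeogenic fructose bisphosphatase, had 0 reads in both scramble libraries and averaged 39.5 ± 5.51 in L1 sgRNA libraries, at least 13.3-fold higher when each scramble library is set to a floor of 3 reads, a bound that covers counting error only. The other gluconeogenic genes that passed, Pck2 and G6pc3, fell by 0.25 and 0.21 on the log2 scale, and G6pc3 did not pass after TMM rescaling (adjusted p = 0.076), on table totals, with edgeR or with DESeq2, nor without the variance trend. Fbp2 too met the filter only through the L1 sgRNA libraries, and it was chosen after its values were seen.

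Epo, the erythropoietin gene and the classic HIF target of kidney, read 16182, 15343 and 16539 in L1 sgRNA libraries, against 14159 and 13988 in scramble libraries (log2 change 0.19, adjusted p = 0.01, and 0.067 without the variance trend). Per kilobase of merged exon that is 18740 in L1 sgRNA and 16460 in scramble libraries, above Pkm at 10650 in L1 sgRNA and 13280 in scramble libraries. The annotation places 104 of its 855 exon bases inside exons of Gnb2 on the same strand, and Gnb2 averaged 13480 ± 611 in L1 sgRNA and 11513 ± 140 in scramble libraries (log2 change 0.23, adjusted p = 0.003). How many of the reads belong to Epo was not tested. Epo was chosen after its values were seen.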
